A study of Mus musculus with 18 samples.

Results

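The nuclear-encoded genes of the respiratory chain and ATP synthase were followed in mouse bone marrow-derived macrophages (BMDMs). They were chosen by name, as the rows whose symbol begins with Nduf, Uqcr, Cox4 to Cox8 or Atp5 without the pseudogene mark -ps, and 90 of the 25926 genes in the table met this rule. By the same names, 38 were put with the subunits of complex I, 8 (Ndufaf) with its assembly factors, 8 with complex III, 18 with complex IV and 18 with complex V. The 90 rows hold 89 symbols, because Atp5o is listed under a pair of identifiers, of which ENSMUSG00000116933 was at 0 in every sample. A mean of at least 1 FPKM, the level required for a test, was reached by 83 members in COM against NC and in COM+Met against NC, and by 82 in COM+Met against COM.

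Complex I oxidises NADH, complex III passes the electrons from ubiquinol to cytochrome c, complex IV hands them to oxygen, and complex V uses the resulting proton gradient to make ATP. Most subunits are encoded in the nucleus, a small set is encoded by mitochondrial DNA, and several nuclear subunits exist as paralogs that tissues use in different proportion. Macrophages that respond to inflammatory signals are known to lean on glycolysis and to use their respiratory chain for signalling as well as for ATP.

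The BMDMs came from C57BL/6J mice, were differentiated with M-CSF (50 ng/mL, 7 days) and shared a Transwell (0.4 μm pores) with primary renal tubular epithelial cells (TECs), the BMDMs above and the TECs below. Total RNA was sequenced from 3 groups of 6 samples, and in NC the BMDMs received PBS over TECs without crystals. In COM they received PBS over TECs treated with 100 μg/mL calcium oxalate monohydrate (COM) for 24 h. COM+Met differed from COM in that the BMDMs received Met at 5 mM for 24 h, an abbreviation that the labels do not spell out. The labels do not say whether the samples of a group were separate cultures or animals, so that p-values measure only how much these samples varied, which may be technical variation. In bulk RNA, fewer cells of a type and less RNA per cell cannot be told apart.

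Macrophage markers were present in all 3 groups (8 of 8 at a mean of at least 1 FPKM). Of 11 tubular epithelial markers, 1 reached a mean of 1 FPKM in NC (Cdh1) and 0 in COM and COM+Met. The summed level of 9 neutrophil markers ran from 392 to 595 FPKM in NC, from 34.0 to 329 in COM and from 19.5 to 45.4 in COM+Met, and that of 4 stromal markers from 13.7 to 49.7, from 0.689 to 27.5 and from 0 to 2.66. The defining neutrophil genes Elane, Mpo, Ly6g and Retnlg had means under 1 FPKM in all 3 groups. The part of these cells in the results was not tested.

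The library COM-6 stood apart from the other COM libraries in these genes. Of the 83 members with a mean of at least 1 FPKM, 79 lay below the median of COM-1 to COM-5 in COM-6, and 72 had their lowest value of all 18 samples there. The median shift was -1.08 on the log2(FPKM + 1) scale, against -0.32 for all other genes, -0.86 for other genes with transcripts under 1000 bases and -0.98 for other genes over 55% GC. Members are short, with a median transcript of 875 bases against 3056 for other genes, and over the 83 members the shift in COM-6 went with GC content (Pearson's r -0.49, a description across genes of 1 library). The 21 members over 55% GC had a median shift of -1.75 and the 13 under 45% GC one of -0.60. Uqcrb, a small subunit of complex III singled out after its values were seen, went the other way, with 151 FPKM in COM-6 against 69.6 to 108 in the other COM samples. Values without COM-6 are therefore given beside the results on COM.

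**Figure D1:**
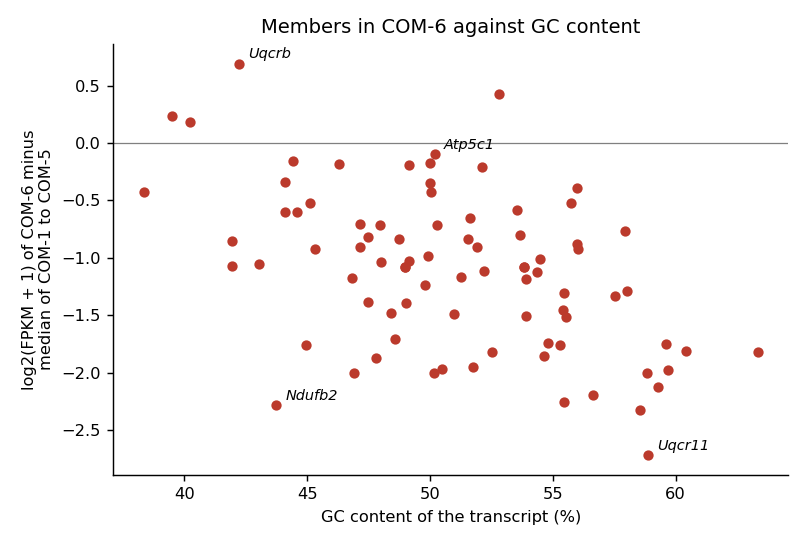
Each point is 1 of 83 members. The x axis gives the GC content of its transcript in percent, the y axis the log2(FPKM + 1) in COM-6 minus the median of COM-1 to COM-5. Most points lie below 0, with 79 members lower in COM-6, and members rich in GC tend to lie lowest.

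**Figure D2:**
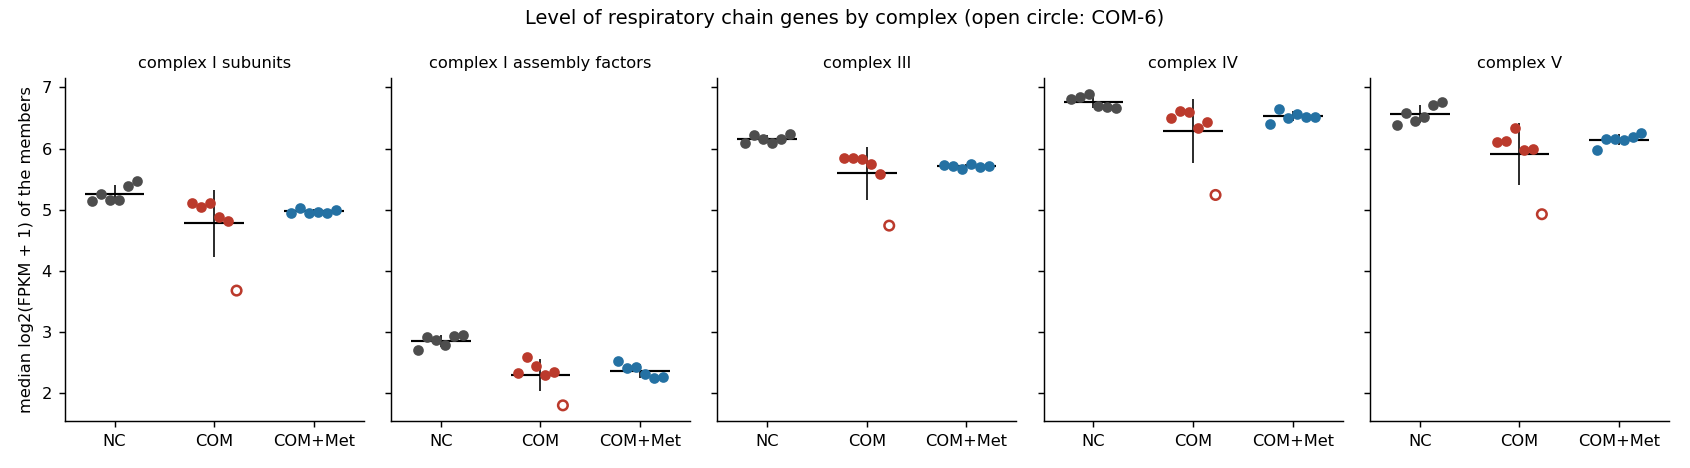
Median log2(FPKM + 1) of the members of each complex in each of the 18 samples. Points are samples, bars the group means, vertical lines the SD, and the open circle marks COM-6, which is lowest in each panel.

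The median log2(FPKM + 1) of the members with a mean of at least 1 FPKM ran from 5.56 to 5.82 in NC (median 5.70), from 4.05 to 5.49 in COM (median 5.30) and from 5.38 to 5.45 in COM+Met (median 5.40). All COM and COM+Met samples lay below all NC samples. COM-1 to COM-5 (5.22 to 5.49) covered the range of COM+Met, while COM-6 lay far below at 4.05. The median of all genes also differed, from 3.49 to 3.56 in NC, from 2.96 to 3.40 in COM and from 3.21 to 3.26 in COM+Met, so the median of all genes is given beside that of the members.

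Promoters of respiratory genes are known for sites of the transcription factors NRF1, GABP (an ETS factor), YY1 and ERR, and 4 such motifs were looked for on both strands. Of the members, 73 had a promoter in the RefSeq table of GRCm38.p6, from 250 bases before to 50 after the gene start. The 10-base NRF1 motif, printed in capitals below, was found in 7 of the 73 (9.59%) against 1.07% of all genes in the table. CCGGAAG (ETS/GABPA) was found in 16 (21.9% against 9.93%), the 10-base YY1 motif in 6 (8.22% against 0.995%) and AAGGTCA (ERR) in 7 (9.59% against 5.38%). A match is a run of letters and not a bound site, and members hold more than 1 motif in some cases (Atp5k holds NRF1, ETS/GABPA and ERR). The windows around all 7 NRF1 motifs are shown so that the genes sharing the motif can be compared, that of the ERR motif because Atp5g3 is later compared with Atp5g2, and that of Atp5j as an example of the YY1 motif. They read 5′ to 3′ along the gene, with 10 bases on either side of the motif.
Atp5g2 (NRF1, chr15:102671070-102671099, minus strand): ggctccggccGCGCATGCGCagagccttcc
Atp5k (NRF1, chr5:108434430-108434459, minus strand): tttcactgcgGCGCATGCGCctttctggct
Cox6a1 (NRF1, chr5:115349101-115349130, minus strand): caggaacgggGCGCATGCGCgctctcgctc
Ndufa11 (NRF1, chr17:56717692-56717721, plus strand): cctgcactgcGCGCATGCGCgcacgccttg
Ndufaf4 (NRF1, chr4:24897960-24897989, plus strand): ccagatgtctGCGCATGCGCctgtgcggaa
Ndufaf5 (NRF1, chr2:140170652-140170681, plus strand): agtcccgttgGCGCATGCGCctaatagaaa
Uqcrc1 (NRF1, chr9:108936668-108936697, plus strand): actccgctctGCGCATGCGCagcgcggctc
Atp5j (YY1, chr16:84835045-84835074, minus strand): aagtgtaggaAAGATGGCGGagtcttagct
Atp5g3 (ERR on the opposite strand, chr2:73911362-73911388, minus strand): tgttacaaagTGACCTTgagcgtcttc
The fold changes of the 7 genes with the NRF1 motif were spread, and a part of the motif in them was not tested. In COM against NC the log2 fold changes were -1.11 for Atp5g2, -0.96 for Atp5k, -0.57 for Cox6a1, -0.56 for Uqcrc1, -0.51 for Ndufa11, 0.04 for Ndufaf4 and 0.03 for Ndufaf5. Without COM-6 they were -0.82, -0.71, -0.24, -0.37, -0.39, -0.01 and 0.16 in the same order.

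COM was compared with NC to ask how BMDMs above crystal-treated TECs differed from those above untreated TECs. Of the 83 members tested, 48 fell (57.8%) and 0 rose at an adjusted p below 0.05 in limma, against 40.6% of all genes lower and 12.7% higher. At an unadjusted p below 0.05, 53 were lower and 0 higher, while of the 10900 genes tested 4910 were lower and 1545 higher. The median log2 fold change was -0.52 over members and -0.27 over all genes. In 39 members (47%) every COM sample lay below every NC sample (29.7% of all genes), and in 0 above (8.6% of all genes).

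Much of this went with the shift of all genes. Median-of-ratios scaling, which sets the median gene near 0, gave 24 members lower (28.9%) and 3 higher (3.61%), against 24.0% of all genes lower and 22.9% higher. The 24 were 10 subunits (27%) and 1 assembly factor (12.5%) of complex I, 2 members of complex III (25%), 4 of complex IV (30.8%) and 7 of complex V (41.2%). The shares of complex I subunits and complex III were thus near the 24.0% of all genes. All 24 were also lower as deposited and without COM-6. The 3 were Ndufaf3 (0.50), Atp5c1 (0.47) and Uqcrc2 (0.42). Without COM-6, 55 fell (66.3%) and 1 rose (1.2%), against 44.2% of all genes lower and 15.5% higher. In that fit 46 of the 48 were called again in the same direction, and the median was -0.34 against -0.22 for all genes. Without NC-5 and NC-6 but with COM-6, 27 of 83 fell (32.5%), close to the 32.3% of all genes that were lower in that fit. In it 0 members rose, against 10.7% of all genes. Without NC-5, NC-6 and COM-6, a fit chosen after seeing the data, 47 fell (56.6%) and 2 rose (2.41%), against 40.2% and 14.4% of all genes. By fold size, 9 members fell by at least 2-fold (11.7% of all genes did) and 0 rose (5.99% of all genes did), and without COM-6 2 fell by as much (9.82% of all genes). With the trend on GC content and transcript length removed, also chosen after seeing the data, 44 fell (53%, against 46.0% of all genes). The median was then -0.41 over members and -0.28 over all genes. With COM-6 left out as well, 45 fell (54.2% against 45.3%), and the medians were close, at -0.28 and -0.22.

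**Figure D3:**
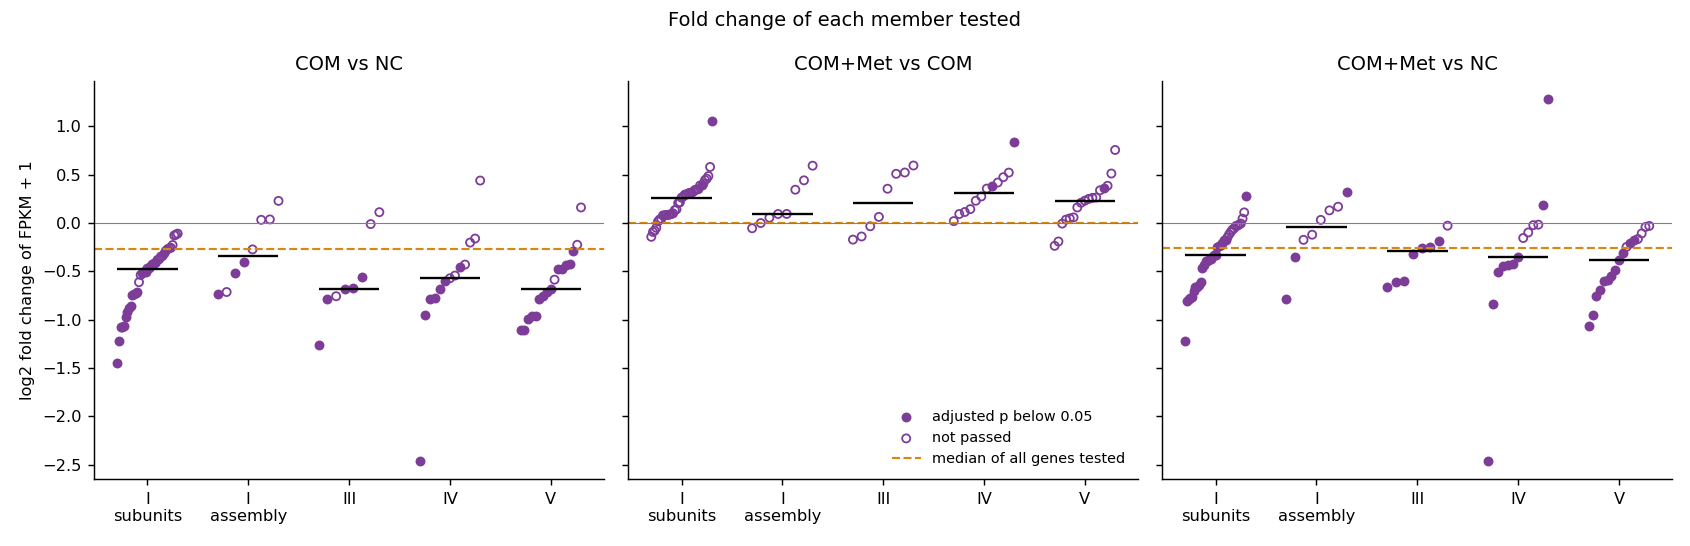
The y axis gives the log2 fold change of FPKM + 1 of each member tested, by complex and comparison. Filled points passed an adjusted p of 0.05, bars are the medians of the complex, and the dashed line is the median of all genes tested, which lies at -0.27 in COM vs NC, 0.00 in COM+Met vs COM and -0.26 in COM+Met vs NC.

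In complex I, 19 of 37 subunits fell (51.4%, against 40.6% of all genes) and 0 rose (12.7% of all genes), with a median log2 fold change of -0.47. Without COM-6, 22 fell (59.5%, against 44.2% of all genes), with a median of -0.29. Ndufv1 carries the flavin site that takes up electrons from NADH, and its FPKM was 33.0 to 46.1 in NC (median 35.0), 4.33 to 27.8 in COM (median 21.4) and 19.1 to 22.8 in COM+Met (median 20.9). Every COM and COM+Met sample lay below every NC sample, with COM-6 lowest. Its log2 fold change was -1.07 (SE 0.34, adjusted p = 0.0182) and -0.72 without COM-6 (SE 0.14, adjusted p = 0.000988).

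Ndufs1, the large iron-sulfur subunit of the same electron input arm, held 29.6 to 37.4 FPKM in NC, 15.6 to 23.9 in COM and 16.8 to 20.4 in COM+Met. It fell by 0.74 on the log2 scale (SE 0.13, adjusted p = 0.000580; -0.68 without COM-6, adjusted p = 0.000702), with no overlap between NC and COM. Ndufs8, which holds iron-sulfur clusters near the quinone site, had 39.1 to 55.5 FPKM in NC, 30.0 to 32.1 in COM-1 to COM-3 and 8.26 to 17.4 in COM-4 to COM-6. Here the COM samples fell into a higher and a lower set, both below NC, and the log2 fold change was -1.07 (SE 0.28, adjusted p = 0.00653; -0.83 without COM-6, adjusted p = 0.00356).

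The other complex I subunits that fell by at least 2-fold were accessory subunits. Ndufa12 spanned 6.46 to 29.9 FPKM in NC and 2.93 to 9.72 in COM, and the groups overlapped through NC-3 at 6.46. It had the largest fall of the complex, by 1.44 on the log2 scale (SE 0.35, adjusted p = 0.00415; -1.29 without COM-6, adjusted p = 0.00878). Ndufb2 held 10.2 to 12.7 FPKM in NC and 4.27 to 7.73 in COM-1 to COM-5 but 0.422 in COM-6, so that its log2 fold change moved from -1.22 (adjusted p = 0.0121) to -0.83 without that library (adjusted p = 0.000161). Ndufb11 moved likewise from -1.07 (adjusted p = 0.00669) to -0.77 (adjusted p = 6.50e-05).

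Ndufa4 is placed with complex I by its name, but is regarded as a subunit of complex IV. Its FPKM was 62.8 to 88.7 in NC (median 70.6), 33.6 to 44.0 in COM (median 41.4) and 39.2 to 46.1 in COM+Met (median 43.0). COM-6 was the lowest sample here too, but close to COM-5 at 35.9. Ndufa4 fell by 0.86 (SE 0.12, adjusted p = 6.10e-05), and by 0.82 without COM-6 (SE 0.10, adjusted p = 5.69e-05).

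Of the 8 complex I assembly factors, which build the complex without staying in it, 3 fell (37.5%, against 40.6% of all genes) and 0 rose. Without COM-6, 4 fell (50%) and 1 rose (12.5%), against 44.2% and 15.5% of all genes. Ndufaf7, a methyltransferase that acts on a core subunit, had a narrow range of 6.77 to 7.28 FPKM in NC against 2.57 to 5.36 in COM and 3.31 to 4.14 in COM+Met, and fell by 0.74 (SE 0.13, adjusted p = 0.000517; -0.65 without COM-6, adjusted p = 0.000341). Ndufaf1 fell by 0.41 (adjusted p = 0.00271) and Ndufaf2 by 0.52 (adjusted p = 0.0270), the latter not without NC-5, NC-6 or COM-4. Without COM-6 both passed, at -0.39 and -0.40. Ndufaf3 was the 1 that rose without COM-6: it held 7.06 to 10.4 FPKM in NC, 10.5 to 12.9 in COM-1 to COM-5 and 5.29 in COM-6, with a log2 fold change of 0.23 (adjusted p = 0.270) that became 0.39 without COM-6 (adjusted p = 0.00394).

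Of the 8 complex III members, 5 fell (62.5%, against 40.6% of all genes) and 0 rose, with a median of -0.68. Without COM-6, 6 of 8 fell (75%, against 44.2% of all genes), with a median of -0.42. Uqcr11, a small subunit, held 37.5 to 54.1 FPKM in NC, 24.2 to 29.7 in COM-1 to COM-5 and 3.37 in COM-6, with a log2 fold change of -1.26 (SE 0.41, adjusted p = 0.0203) that was -0.81 without COM-6 (SE 0.10, adjusted p = 5.24e-05). Uqcr10 (adjusted p = 0.0131), Uqcrh (adjusted p = 0.00486), the Rieske iron-sulfur protein Uqcrfs1 (adjusted p = 0.0405) and the core protein Uqcrc1 (adjusted p = 0.0429) had log2 fold changes of -0.79, -0.68, -0.68 and -0.56. The calls of Uqcrfs1 and Uqcrc1 were lost without any 1 of the NC libraries, COM-4 or COM-5, and without COM-6 they held (adjusted p = 0.0118 and 0.0296). Without COM-6 the 4 log2 fold changes were -0.53, -0.52, -0.42 and -0.37. Uqcrc2, the other core protein, singled out after its values were seen, had 38.7 to 50.1 FPKM in NC and 43.7 to 51.2 in COM, largely overlapping, with a log2 fold change of 0.11 (adjusted p = 0.327) that was 0.42 with median-of-ratios scaling (adjusted p = 0.00209). The difference between the core proteins was not tested.

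**Figure D4:**
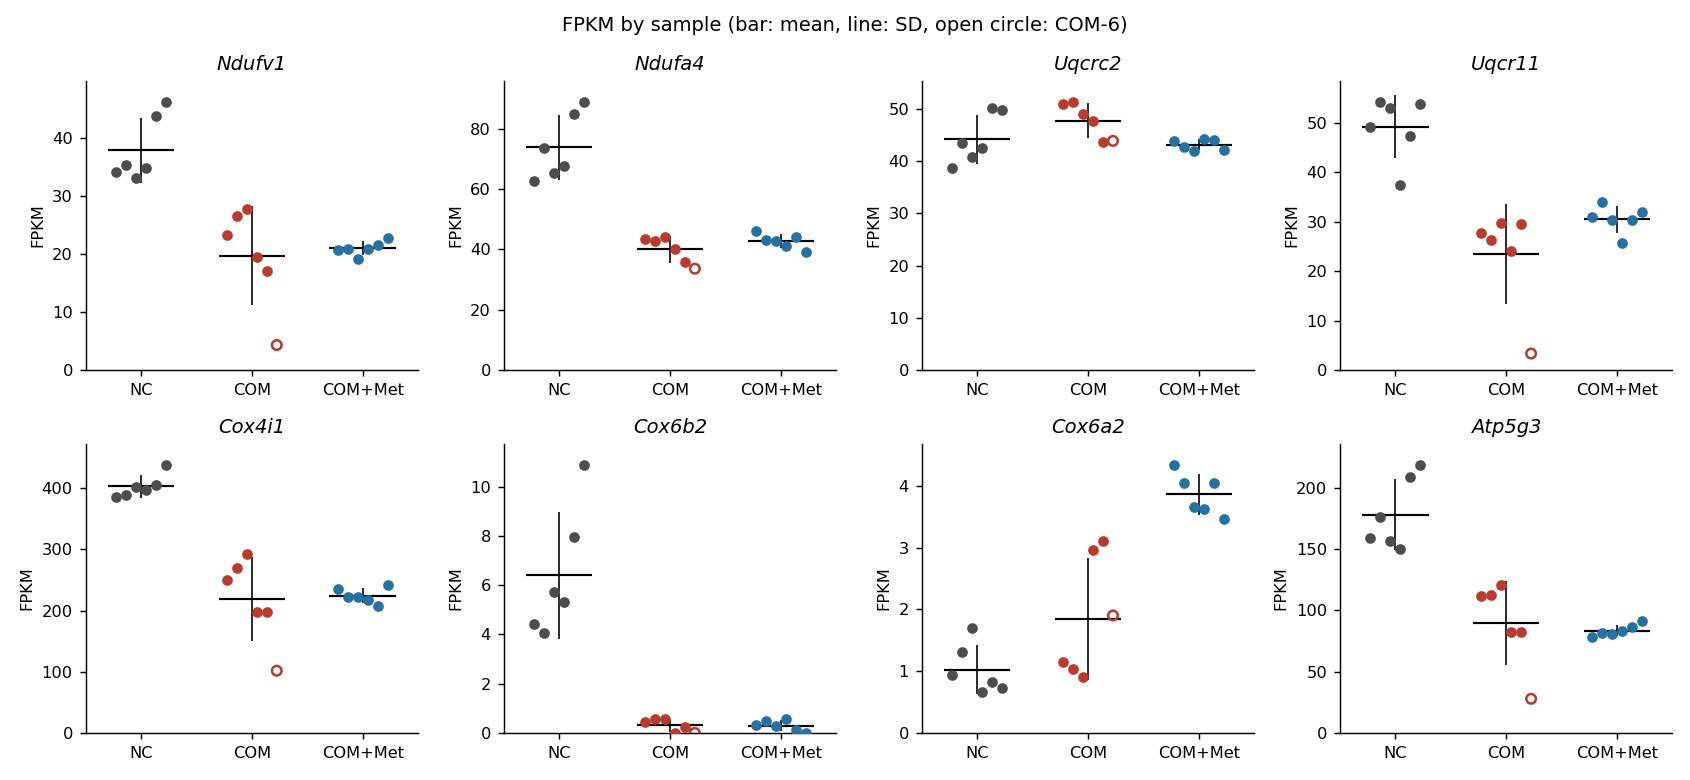
FPKM by sample for 8 members, with each axis starting at 0. Points are samples, bars the group means, vertical lines the SD, and the open circle is COM-6. In Ndufv1, Ndufa4, Uqcr11, Cox4i1, Cox6b2 and Atp5g3 the NC samples lie above all others, in Uqcrc2 the groups overlap, and in Cox6a2 the COM+Met samples lie above all others.

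In complex IV, 7 of 13 tested members fell (53.8%, against 40.6% of all genes) and 0 rose, with a median of -0.57. Without COM-6, 10 of 13 fell (76.9%, against 44.2% of all genes), with a median of -0.32. Cox4i1, the ubiquitous form of the regulatory subunit 4, was the most abundant member with a mean of 282 FPKM over all samples. It held 386 to 438 FPKM in NC (median 399.5), 102 to 293 in COM (median 224) and 208 to 242 in COM+Met (median 222), with NC above all other samples. It fell by 0.96 (SE 0.21, adjusted p = 0.00251), and by 0.75 without COM-6 (SE 0.11, adjusted p = 0.000147).

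The largest fall of all members was that of Cox6b2, known as the testis form of subunit 6b. It was low in NC at 4.07 to 10.9 FPKM (median 5.52) and lay between 0 and 0.585 in COM and between 0 and 0.568 in COM+Met. No COM or COM+Met sample reached 1 FPKM. It fell by 2.47 (SE 0.21, adjusted p = 1.55e-06), and by 2.39 without COM-6. Cox6b2 reached the mean of 1 FPKM required for a test only through NC (mean 6.40 FPKM, 0.303 in COM and 0.298 in COM+Met). A gene this low in COM could be tested only because it was high in NC. Cox6b1, the common form, had 117 to 145 FPKM in NC, so that Cox6b2 was the minor form in each group.

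The other tissue forms of complex IV were low or listed at 0. Cox7b2, Cox8c and the second Atp5o identifier were at 0 in all 18 samples. Cox8b was above 0 only in COM-2 (0.0861 FPKM), Cox4i2 held at most 0.301 FPKM in NC, 0 in each COM sample and at most 0.0197 in COM+Met, and Cox7a1 held 0.381 to 1.81 FPKM in NC, 0 to 0.509 in COM and 0 to 0.365 in COM+Met. Ndufa4l2, the hypoxia-induced relative of Ndufa4, stayed at or below 0.390 FPKM. These members were not tested, being under the mean of 1 FPKM.

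Complex IV also held genes whose fold change was larger in size with COM-6 than without it. Cox6a1, the liver-type form of subunit 6a, held 197 to 224 FPKM in NC, 166 to 187 in COM-1 to COM-5 and 44.6 in COM-6. No COM sample reached the NC range. With all samples its log2 fold change was -0.57 (adjusted p = 0.126), and without COM-6 it was -0.24 (adjusted p = 0.00654). Cox5a, a subunit on the matrix side, moved from -0.43 (adjusted p = 0.0786) to -0.24 (adjusted p = 0.0330), and Cox7a2 from -0.16 (adjusted p = 0.421) to -0.00 (adjusted p = 0.962). Cox7a2l, a paralog of Cox7a2, fell by 0.78 (adjusted p = 0.0116; -0.59 without COM-6, adjusted p = 0.00759).

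In complex V, 14 of 17 tested members fell (82.4%, against 40.6% of all genes) and 0 rose, with a median of -0.69. Without COM-6, 13 of 17 fell (76.5%, against 76.9% in complex IV and 44.2% of all genes), with a median of -0.49. The c-ring, whose turning drives ATP synthesis, is built from 1 protein that Atp5g1, Atp5g2 and Atp5g3 all encode. Atp5g3 held 150 to 219 FPKM in NC (median 168), 27.9 to 121 in COM (median 97.1) and 78.0 to 91.3 in COM+Met (median 82.7). Atp5g2 held 78.7 to 98.8, 13.9 to 57.1 and 54.1 to 59.8 FPKM in the same groups, and neither gene had a COM sample within the NC range. They fell by 1.10 (SE 0.30, adjusted p = 0.00800) and 1.11 (SE 0.28, adjusted p = 0.00492), and without COM-6 the log2 fold changes were -0.80 (adjusted p = 0.000523) and -0.82 (adjusted p = 7.97e-05).

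Atp5g1 was lower and more scattered, with 21.3 to 54.5 FPKM in NC and 12.6 to 38.0 in COM. Its groups overlapped, and its log2 fold change of -0.71 passed the test with all samples (adjusted p = 0.0438) but not without COM-6 (-0.56, adjusted p = 0.0832), nor without any 1 of NC-2 to NC-6, COM-4 or COM-5. In the catalytic head, Atp5a1 (alpha) fell by 0.69 (adjusted p = 0.00797) and Atp5b (beta, which carries the catalytic sites) by 0.43 (adjusted p = 0.0223), the latter not without NC-5 or without NC-6. Without COM-6 they were at -0.54 and -0.32, and both passed. NC-5 and NC-6 stood above the other NC samples in Atp5a1, with 302 and 289 FPKM against 202 to 227. Atp5c1, the gamma subunit of the central stalk, singled out after its values were seen, held 101 to 124 FPKM in NC and 108 to 141 in COM, with a log2 fold change of 0.16 (adjusted p = 0.202) that was 0.47 with median-of-ratios scaling (adjusted p = 0.00134). Atp5e, the epsilon subunit of the same stalk, fell by 0.99 (adjusted p = 0.0140; -0.67 without COM-6, adjusted p = 0.000148). Atp5s, placed here by its name, is a coupling factor and no core subunit.

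COM+Met was compared with COM to ask what Met added in BMDMs above crystal-treated TECs. Of 82 members tested, 5 rose (6.10%) and 0 fell, against 5.77% of all genes higher and 7.58% lower, so that the share of rises was near that of all genes. At an unadjusted p below 0.05, 13 were higher and 1 (Atp5c1) lower, while of the 10364 genes tested 1352 were higher and 1617 lower. With median-of-ratios scaling 10 were higher (12.2%) and 0 lower, against 7.91% and 9.54% of all genes. The sign was higher in COM+Met for 70 of the 82, with a median log2 fold change of 0.24 against 0.00 for all genes. This lean was smaller without COM-6, where 45 of 82 were higher and the median was 0.03 against -0.04 for all genes. In that fit 11 rose (13.4%) and 2 fell (2.44%), against 10.6% of all genes higher and 15.9% lower. With median-of-ratios scaling and without COM-6, 19 were higher (23.2%) and 3 lower (3.66%), against 14.6% and 17.3% of all genes. The 5 that rose with all samples rose again without COM-6.

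Cox6a2, the heart and muscle form of subunit 6a, was 1 of the 5. It held 0.660 to 1.71 FPKM in NC (median 0.876), 0.902 to 3.10 in COM (median 1.53) and 3.46 to 4.33 in COM+Met (median 3.85). COM-1 to COM-3 lay at 0.902 to 1.15, within NC, COM-4 to COM-6 lay higher at 1.90 to 3.10, and COM+Met lay above all other samples. COM against NC did not pass (0.44, adjusted p = 0.10). It rose in COM+Met against COM by 0.84 on the log2 scale (SE 0.19, adjusted p = 0.0120; 0.86 without COM-6, adjusted p = 0.00967). The 5 skeletal muscle markers summed to at most 0.185 FPKM in NC, 0.910 in COM and 0.106 in COM+Met.

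Ndufa12 held 2.93 to 9.72 FPKM in COM and 7.08 to 18.3 in COM+Met, with overlap through COM+Met-3, and rose by 1.06 (SE 0.27, adjusted p = 0.0225; 0.90 without COM-6, adjusted p = 0.0231). It was the 1 member that rose by at least 2-fold (0.608% of all genes did), and 0 fell by as much (1.61% of all genes). Ndufa6, an accessory subunit of the matrix arm, held 30.8 to 52.6 FPKM in COM and 54.5 to 65.0 in COM+Met, without overlap, and rose by 0.39 (adjusted p = 0.0437). Cox7c, a small subunit of complex IV, held 54.5 to 86.1 and 87.4 to 101 FPKM and rose by 0.38 (adjusted p = 0.0307). Atp5j2, the f subunit of the membrane part of complex V, held 30.7 to 45.1 and 48.3 to 54.9 FPKM and rose by 0.37 (adjusted p = 0.0227). With 1 library left out at a time, Cox6a2 passed each time. Ndufa12 did not pass without COM-1, COM+Met-1, COM+Met-5 or COM+Met-6, and Atp5j2 did not without COM+Met-1, COM+Met-4 or COM+Met-6. Ndufa6 and Cox7c did not pass in most such fits, and the count of rises ran from 1 (without COM+Met-1 or COM+Met-6) to 11 (without COM-6). Of all genes, 4.5%, 3.83% and 10.6% rose in these fits.

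In 9 members COM and COM+Met did not overlap, each time with COM+Met higher (5.83% of all genes were apart and higher, 5.34% apart and lower). Besides Cox6a2, Ndufa6, Cox7c and Atp5j2 these were Atp5b, Uqcr10, Atp5k, Cox7b and Ndufs5, of which the last 3 were named after their values were seen. Atp5k, the e subunit of complex V, held 6.30 to 22.3 FPKM in COM and 26.8 to 32.2 in COM+Met, with a log2 fold change of 0.76 (adjusted p = 0.0534) that was 0.50 without COM-6 (adjusted p = 0.000929). Atp5b held 155 to 253 FPKM in COM and 261 to 277 in COM+Met (0.26, adjusted p = 0.165; 0.15 without COM-6, adjusted p = 0.0415).

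For most of the members that fell in COM, COM+Met against COM did not pass the test. Ndufa4 differed by 0.10 (SE 0.09, adjusted p = 0.481), Cox4i1 by 0.11 (SE 0.21, adjusted p = 0.763), Ndufv1 by 0.26 (SE 0.33, adjusted p = 0.649) and Atp5g3 by 0.04 (SE 0.29, adjusted p = 0.950). The SEs of the last 3 are wide because of COM-6, and without it the log2 fold changes were -0.09, -0.09 and -0.27 with SEs of 0.10, 0.11 and 0.11. With COM-4, COM-5 and COM-6 all left out, 13 members (15.9%) were higher and 24 (29.3%) lower in COM+Met, against 17.8% and 43.4% of all genes, so that the count of falls depended on which COM libraries were kept.

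COM+Met was also compared with NC, which shares its NC samples with the comparison of COM with NC and its COM+Met samples with that of COM+Met with COM. Of 83 members, 52 fell (62.7%) and 4 rose (4.82%), against 55.9% of all genes lower and 19.3% higher, and the median was -0.31 against -0.26 for all genes. With median-of-ratios scaling, 27 were lower (32.5%) and 22 higher (26.5%), against 35.9% and 34.8% of all genes. The direction of many calls thus depended on the scaling. Every COM+Met sample lay below every NC sample in 35 members (42.2%, against 43.6% of all genes) and above in 1 (1.2%, against 14.1% of all genes). This comparison does not involve COM-6, and COM+Met samples lay close together.

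By at least 2-fold, 3 members fell (13.6% of all genes did) and 1 rose (5.66% of all genes did). Cox6b2 fell by 2.46 (SE 0.20, adjusted p = 1.31e-07), Ndufs8 by 1.22 (SE 0.11, adjusted p = 3.23e-07) and Atp5g3 by 1.07 (SE 0.09, adjusted p = 2.94e-07). Of these, Cox6b2 again reached the mean required for a test only through NC. Cox4i1 (-0.84, adjusted p = 6.20e-09), Ndufaf7 (-0.79, adjusted p = 1.39e-08), Ndufs1 (-0.79, adjusted p = 2.69e-07), Atp5mpl (-0.75, adjusted p = 1.34e-07) and Uqcrfs1 (-0.61, adjusted p = 3.10e-07) were among the other falls. All of these were also lower with median-of-ratios scaling.

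The 4 rises were Cox6a2 by 1.28 (SE 0.11, adjusted p = 3.55e-07), Ndufaf3 by 0.32 (SE 0.07, adjusted p = 0.00143), Ndufab1 by 0.28 (SE 0.09, adjusted p = 0.0120) and Cox7c by 0.18 (SE 0.06, adjusted p = 0.0219; not passed without NC-1). Ndufab1, the mitochondrial acyl carrier protein, held 9.41 to 14.8 FPKM in NC and 12.7 to 15.0 in COM+Met, with overlap. Cox6a2 was the 1 member that lay above NC in every COM+Met sample. Cox6a1 and Cox7a2 had log2 fold changes of -0.10 (adjusted p = 0.0840) and -0.02 (adjusted p = 0.821) as deposited but of 0.20 and 0.28 with median-of-ratios scaling.

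Ratios between paralogs within a sample do not depend on how the sample was scaled, but a shift that follows GC content, as in COM-6, can move them. Of 10 pairs listed, 5 had values above 0 and means of at least 1 FPKM, which gave 15 tests (two-sided exact permutation, in which 0.00216 is the smallest p that 6 against 6 samples allow; Benjamini-Hochberg over the 15). Members with close paralogs or processed pseudogenes can share reads, and how the authors' counting treated such reads is not stated.

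The largest shift was between Ndufa4 (chromosome 6, 11900292 to 11907497 on GRCm38, minus strand) and its paralog AA467197 (chromosome 2, 122636986 to 122641191, plus strand). AA467197, which encodes a protein known to take the place of Ndufa4 in complex IV of inflammatory cells, is outside the naming rule. Its FPKM was 63.9, 86.8, 61.7, 43.1, 17.5 and 16.0 in NC-1 to NC-6, 329 to 437 in COM (median 372) and 186 to 316 in COM+Met (median 199). The 3 groups did not overlap, with COM highest and NC lowest. The ratio of AA467197 to Ndufa4 was 0.181 to 1.18 in NC, 7.56 to 11.8 in COM and 4.35 to 6.85 in COM+Met, again without overlap. On the log2 scale COM was 4.10 above NC, COM+Met was 3.20 above NC and the change from COM to COM+Met was -0.91 (exact permutation p = 0.00216 and adjusted p = 0.00541 for each). Without COM-6 the differences from COM were 4.05 to NC (exact p = 0.00216) and -0.85 to COM+Met (exact p = 0.00433), and the lower ratio in COM+Met went with AA467197 (log2 fold change -0.80, adjusted p = 0.00274) while Ndufa4 did not pass.

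**Figure D5:**
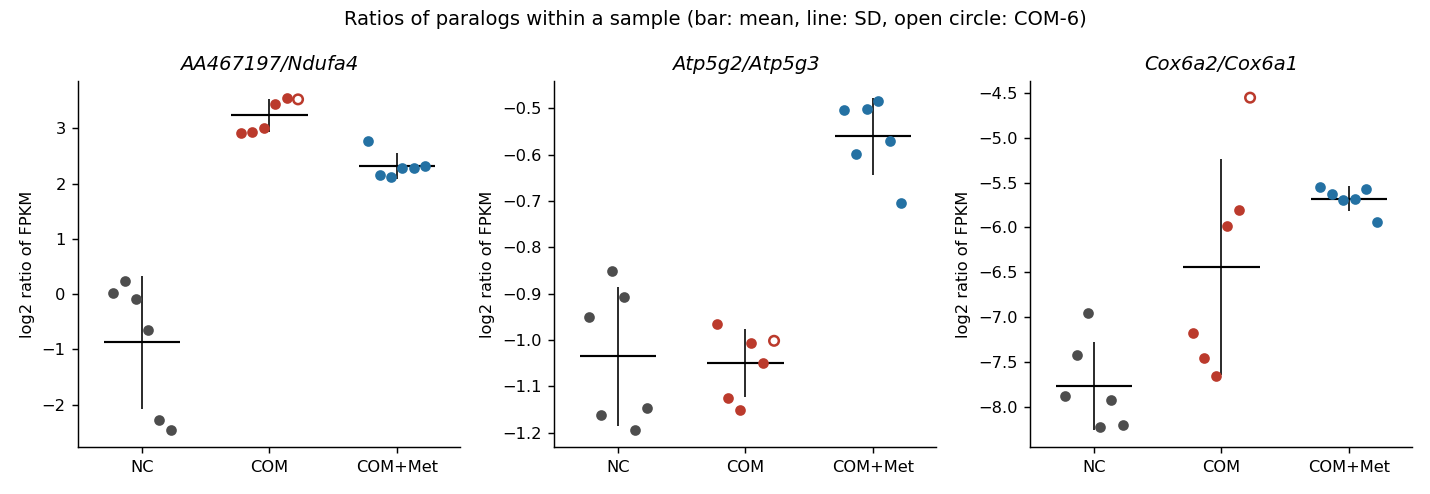
Log2 ratio of FPKM of a paralog pair in each sample. Points are samples, bars the group means, vertical lines the SD, and the open circle is COM-6. AA467197/Ndufa4 separates the 3 groups, Atp5g2/Atp5g3 separates COM+Met from both others, and Cox6a2/Cox6a1 separates COM+Met from NC, with COM spread between and COM-6 highest.

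Within the c-ring genes, the ratio of Atp5g2 to Atp5g3 was 0.437 to 0.554 in NC (median 0.485), 0.451 to 0.512 in COM (median 0.490) and 0.614 to 0.715 in COM+Met (median 0.689). COM lay inside the NC range, COM-6 included, and COM+Met lay above both. The log2 ratio differed by -0.01 between COM and NC (exact p = 0.831), while COM+Met was 0.49 above COM and 0.48 above NC (exact p = 0.00216 and adjusted p = 0.00541 for each). Without COM-6 the difference from COM was 0.50 (exact p = 0.00216). Atp5g1 to Atp5g3 gave no difference that passed, with log2 differences of 0.38 (COM against NC, adjusted p = 0.218), -0.29 (COM+Met against COM, adjusted p = 0.362) and 0.09 (COM+Met against NC, adjusted p = 0.802) by the exact test. Of the windows printed above, that of Atp5g2 holds the NRF1 motif 42 bases before the start that RefSeq gives, and that of Atp5g3 the ERR motif 52 bases before its own. The GENCODE gene of Atp5g2 reaches further upstream (to 102672352 on chromosome 15, minus strand), so that this motif lies inside it.

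Cox6a2 to Cox6a1 was 0.00334 to 0.00807 in NC, 0.00497 to 0.0426 in COM and 0.0163 to 0.0213 in COM+Met, so that Cox6a1 was by far the main form in each sample. COM+Met was 2.09 above NC on the log2 scale without overlap (exact p = 0.00216, adjusted p = 0.00541). COM against NC gave 1.33 (exact p = 0.0260, adjusted p = 0.0487), which was 0.95 without COM-6 (exact p = 0.0433) and did not pass without NC-1, NC-4, NC-5 or NC-6 (1.24 to 1.31). COM+Met against COM gave 0.76 (exact p = 0.126, adjusted p = 0.188), and 1.14 without COM-6 (exact p = 0.00433), whose ratio of 0.0426 was the highest of the 18. Cox7a2l to Cox7a2 was 0.63 lower in COM than in NC (log2 difference -0.63, exact p = 0.0195, adjusted p = 0.0417; -0.59 without COM-6, exact p = 0.0303), with ranges of 1.26 to 2.22 and 0.893 to 1.49 that overlapped.

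Genes of the same pathway outside the rule were counted from lists. The 13 mitochondrially encoded subunits had 6 falls (46.2%, against 40.6% of all genes) and 0 rises (12.7% of all genes) in COM against NC. In COM+Met against COM they had 0 of either (1 higher and 0 lower at an unadjusted p below 0.05). In COM+Met against NC they had 7 falls (53.8%, against 55.9% of all genes) and 1 rise (7.69%, against 19.3%). The medians in the 3 comparisons were -0.49, 0.10 and -0.36. With median-of-ratios scaling, 1 of the 13 was lower in COM than in NC (7.69%, against 24.0% of all genes). Without COM-6 the counts were larger: 12 of the 13 fell in COM against NC (median -0.60, against 44.2% of all genes lower), all but mt-Nd5, and 7 rose and 0 fell in COM+Met against COM (median 0.35, against 10.6% of all genes higher). Those 7 included, named after their values were seen, the complex I subunits mt-Nd2 (0.53, adjusted p = 0.000447) and mt-Nd5 (0.42, adjusted p = 0.00230) and the complex III subunit mt-Cytb (0.54, adjusted p = 0.00124). Of 8 tested genes of complex II and other subunits, 2 rose (25%, against 12.7% of all genes) and 2 fell (25%, against 40.6%) in COM against NC. The catalytic subunit Sdha (-0.47, adjusted p = 0.00514) and the anchor Sdhc (-0.49, adjusted p = 0.0384) were lower, cytochrome c (Cycs, 0.47, adjusted p = 0.0430) and AA467197 higher. Both lower calls were lost with median-of-ratios scaling, which gave 4 higher (50%, against 22.9% of all genes) and 0 lower (24.0% of all genes). Without COM-6 the call of Cycs was lost (0.38, adjusted p = 0.0755), Sdha and Sdhc stayed lower, Sdhd passed as lower (-0.28, adjusted p = 0.0144) and Sdhb as higher (0.32, adjusted p = 0.0430). In COM+Met against COM, AA467197 was the 1 of the 8 that passed. In COM+Met against NC, 2 rose (25%) and 3 fell (37.5%), against 19.3% and 55.9% of all genes.

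Among 39 tested assembly factors and the ATP synthase inhibitor Atpif1, 4 rose (10.3%) and 13 fell (33.3%) in COM against NC, against 12.7% and 40.6% of all genes. With median-of-ratios scaling, 8 were higher (20.5%) and 6 lower (15.4%), against 22.9% and 24.0% of all genes. Without COM-6, 5 rose (12.8%) and 11 fell (28.2%), against 15.5% and 44.2% of all genes. Coa5 (0.99, adjusted p = 7.29e-05) and the copper chaperone Cox17 (0.82, adjusted p = 0.00561), both needed to build complex IV, were the largest rises, and Atpaf1 (-1.08, adjusted p = 2.90e-05), which assembles the head of complex V, and Atpif1 (-1.03, adjusted p = 9.88e-05) the largest falls. Without COM-6 these 4 log2 fold changes were 0.93, 0.93, -1.01 and -0.94, and all passed. In COM+Met against COM, 5 rose (12.8%, against 5.77% of all genes) and 0 fell (7.58% of all genes; 0 also at an unadjusted p below 0.05), namely the copper protein Sco2 (1.11, adjusted p = 0.00677), Cox16 (0.76, adjusted p = 0.000960), Timmdc1 (0.51, adjusted p = 0.0123), Atpaf1 (0.41, adjusted p = 0.0497) and Coa4 (0.35, adjusted p = 0.0213). Without COM-6 the same 5 rose, with Coa3 (0.38, adjusted p = 0.0126) and Uqcc1 (0.29, adjusted p = 0.0176), and Cox15 fell (-0.32, adjusted p = 0.0323). Against NC, COM+Met had 10 rises (25.6%) and 12 falls (30.8%), against 19.3% and 55.9% of all genes.

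Of 13 tested regulators of respiratory genes, 7 fell (53.8%, against 40.6% of all genes) and 1 rose (7.69%, against 12.7%) in COM against NC. Without COM-6, 8 fell (61.5%) and 1 rose (7.69%), against 44.2% and 15.5% of all genes. With median-of-ratios scaling, in which Yy1 did not pass, 4 were lower (30.8%) and 1 higher (7.69%), against 24.0% and 22.9% of all genes. Nrf1, whose product reads the NRF1 motif shown above, had a log2 fold change of -0.51 (adjusted p = 0.000344), Gabpa of -0.70 (adjusted p = 0.00173), Yy1 of -0.35 (adjusted p = 0.00354) and the hypoxia factor Hif1a of 0.42 (adjusted p = 0.0271). Without COM-6 they were -0.48, -0.77, -0.37 and 0.33, and all passed. In COM+Met against COM, 1 of 13 passed, the coactivator Pprc1 (0.37, adjusted p = 0.00544). Without COM-6, 4 passed: Pprc1 (0.34, adjusted p = 0.00155) and the mitochondrial RNA polymerase Polrmt (0.26, adjusted p = 0.00805) were higher, Nrf1 (-0.22, adjusted p = 0.0452) and Gabpb2 (-0.24, adjusted p = 0.0299) lower. In COM+Met against NC, 9 fell (69.2%) and 2 rose (15.4%), against 55.9% and 19.3% of all genes.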

How the data were processed

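The authors deposited FPKM values (fragments scaled to gene length and to the mapped total) for 25926 genes in 18 separate samples. Bowtie 0.12.2, mm8 and mm9 appear in the submitters' processing notes with no role, and for the FPKM program, its annotation and its filters "not given in the sources used here" applies. FPKM does not give the read depth, which is unknown, so no counting interval or detection limit is given. Because of this scaling, FPKM of a gene goes down where abundant genes go up.

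Groups and replicate numbers came from the sample titles. Values were tested as log2(FPKM + 1), a scale that understates the change of low genes, with limma 3.58.1 (trend on mean expression, R 4.3.3) for genes averaging 1 FPKM or more in the 12 samples of a comparison, each fitted on its own, two-sided, with Benjamini-Hochberg adjustment over all genes tested. Single ratios were tested by exact permutation over 924 splits. Alternatives were other pseudocounts, filters and scalings (TPM, median-of-ratios, quantile), a replicate block, 1 fit of 18 samples, sample weights and samples left out. GC content and transcript length came from GENCODE M21 on GRCm38 (known for 96.0% of expressed genes). Named were members past 2-fold, the 3 largest rises and falls that passed in each complex, 19 members of a fixed list and AA467197, and others where stated. The members, lists, rule and tests were chosen with earlier results of these data known. The code was tested on simulated data. Python 3.11.15 with pandas 2.3.3, numpy 2.4.6, scipy 1.17.1 and matplotlib 3.10.9 was used.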

Additional observations from a re-analysis of the deposited data

Results flagged for a closer look

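In 126 groups of 6 samples (members named above and medians by complex), the lowest or highest sample was compared with its neighbour by Dixon's ratio (the gap divided by the whole range) at the 95% critical value for 6 samples. Chance flags about 1 in 20 independent groups. These groups share the same 18 samples, and part of the members were named for their falls in COM, so that rate does not apply here. The limit was passed 29 times, and in 25 of these COM-6 was the lowest COM sample.

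COM-6 was lowest for the median of all members (0.811), of complex I subunits (0.795), of complex III (0.754), of complex IV (0.796) and of complex V (0.743). In complex I the ratios were 0.742 for Ndufa6, 0.760 for Ndufaf3, 0.738 for Ndufb11, 0.722 for Ndufb2 and 0.722 for Ndufv1. In complex III they were 0.963 for Uqcr10, 0.899 for Uqcr11, 0.630 for Uqcrc1 and 0.645 for Uqcrfs1. In complex IV they were 0.632 for Cox4i1, 0.793 for Cox5a, 0.749 for Cox5b, 0.918 for Cox6a1 and 0.779 for Cox7a2. In complex V they were 0.743 for Atp5b, 0.830 for Atp5e, 0.739 for Atp5g2, 0.737 for Atp5g3, 0.681 for Atp5j2 and 0.841 for Atp5mpl.

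The other 4 were COM+Met-1, highest of its group in AA467197 (0.723) and Uqcrc1 (0.719), COM+Met-3, lowest in Ndufab1 (0.629), and NC-4, lowest in Uqcr11 (0.635).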

How the results depend on the processing

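Over 2001 refits of single genes named above, 1784 kept their direction and their side of the threshold, 117 lost and 40 gained the call, 12 reversed and 48 changed sign without passing. Where a count, median or direction below differs from the report, the cause was not tested. The 4 alternatives that combine COM-6 left out with another change, remove the trend with GC and length, or leave out NC-5, NC-6 and COM-6 together were chosen after seeing the data.

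In COM against NC, the members higher are given with the share of all genes higher in brackets. They were 3 with median-of-ratios scaling (22.9%), 4 with quantile normalisation (22.7%), 1 in 1 fit of 18 samples (14.7%) and 7 with sample weights (22.1%). They were 2 without COM-4, COM-5 and COM-6 (17.7%) and 2 without NC-5, NC-6 and COM-6 (14.4%). They were 8 with median-of-ratios scaling without COM-6 (27.9%), 2 with the GC and length trend removed (13.1%) and 1 with this and without COM-6 (15.2%). The members lower were 24 with median-of-ratios scaling (28.9%, against 24.0% of all genes) and 27 without NC-5 and NC-6 (32.5% against 32.3%). They were 29 with median-of-ratios scaling without COM-6 (34.9% against 27.9%), where the median was -0.12. The median of -0.52 also moved to -0.24 with median-of-ratios scaling, to -0.28 with weights and to -0.28 without COM-4, COM-5 and COM-6.

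For COM+Met against COM, the members higher were 10 (median-of-ratios, 12.2% against 7.91% of all genes) and 11 (quantile, 13.4% against 9.08%). They were 8 in 1 fit of 18 samples (9.76% against 7.75%) and 14 with weights (17.1% against 19.7%). Without COM-4, COM-5 and COM-6 they were 13 (15.9% against 17.8%). Without COM-6 they were 19 with median-of-ratios (23.2% against 14.6%) and 8 with GC and length (9.76% against 11.1%). The members lower were 22 with weights (26.8% against 44.8% of all genes) and 24 without COM-4, COM-5 and COM-6 (29.3% against 43.4%). Without COM-6 they were 3 with median-of-ratios (3.66% against 17.3%) and 3 with GC and length (3.66% against 15.7%). The median was -0.022 with weights, -0.037 without those 3 COM libraries and -0.028 with GC and length without COM-6. With weights, and without those 3 libraries, Ndufv1 reversed to -0.28 and -0.29, Uqcrfs1 to -0.38 and -0.40, Cox4i1 to -0.27 and -0.27, and Atp5g3 to -0.43 and -0.46. Without COM-6, Atp5g3 reversed to -0.22 with median-of-ratios and to -0.34 with GC and length.

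For COM+Met against NC, the members higher were 22 with median-of-ratios (26.5% against 34.8% of all genes) and 10 with quantile (12% against 35.1%). In 1 fit of 18 samples 1 was higher (1.2% against 15.8%). The members lower were 27 with median-of-ratios (32.5% against 35.9%) and 32 in 1 fit of 18 samples (38.6% against 47.0%). The median was -0.017 with median-of-ratios and -0.17 with quantile. Cox6a1 and Cox7a2 reversed to 0.20 and 0.28 with median-of-ratios.

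With 1 library left out at a time, the members higher in COM than in NC ran from 0 to 1 (11.6% to 15.5% of all genes). Those lower ran from 36 (43.4% against 36.8% of all genes, without NC-6) to 55 (66.3% against 44.2%, without COM-6). For COM+Met against COM the members higher ran from 1 (without COM+Met-1, and without COM+Met-6) to 11 (without COM-6). Of all genes, 4.5%, 3.83% and 10.6% were higher in these fits. The members lower ran from 0 to 2 (without COM-6, 2.44% against 15.9% of all genes). The log2 ratio of Atp5g2 to Atp5g3 ran from -0.046 to 0.022 and that of Cox6a2 to Cox6a1 from 0.95 to 1.57 in COM against NC, and the latter from 0.52 to 1.14 in COM+Met against COM. For COM+Met against NC, Atp5g1 to Atp5g3 ran from -0.073 to 0.21, Cox7a2l to Cox7a2 from -0.51 to -0.35, and the median relative to all genes from -0.067 to 0.0058.

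With a replicate block, 1 member was higher in COM+Met than in COM (1.22%, against 2.78% of all genes). The numbers did not pair the samples, since the correlation of same-numbered samples' deviations ran from -0.11 to -0.03 in COM against NC, from -0.22 to 0.03 in COM+Met against COM and from -0.11 to 0.06 in COM+Met against NC.

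The depth behind FPKM is unknown, so genes near 0 cannot be called absent. All of COM carries the doubt about COM-6, and COM-4 and COM-5 sided with it in some genes. Counts of calls depend on the scaling of the whole sample, which the paralog ratios do not. The ratios do not cancel a shift that follows GC content, which was 58.8% in Cox6a1 and 52.8% in Cox6a2, and 63.3% in Atp5g2 and 50.5% in Atp5g3. In COM-6 the ratio of Cox6a2 to Cox6a1 was the highest of all samples, while that of Atp5g2 to Atp5g3 (0.499) lay within the other COM samples.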
